A study of Ovis aries with 3 samples.

Results

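The genes described here are the cytokines, chemokines and their receptors in single cells of Hu sheep rumen epithelium. They were chosen by symbol alone: names in which IL, TNF or IFN is followed by a digit or letter, and names that begin with CCL, CCR, CXCL, CXCR or CSF. ILF, ILK, ILVBL and TNFAIP genes were left out, as were IL17F, IL1B and IL36A, and TNF itself lies outside this wording. The rule found 144 of the 26247 genes in the count tables. Lambs of 42 days had received milk plus concentrate starter, milk plus alfalfa hay, or milk only, so milk was common to all 3 diets, and each diet was represented by 1 library of cells freed from rumen epithelium with trypsin. With 1 library per diet, diet, animal and preparation cannot be told apart, there is no replicate check, and no test was made.

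Cytokines are secreted proteins that immune and barrier cells use to signal over short distances, and chemokines are the subgroup that directs cell migration. A cell answers only where it carries the matching receptor subunits, while decoy receptors and soluble antagonists hold back a signal. In stratified epithelia, keratinocytes are known both as targets of T cell cytokines such as IL-17 and IL-22 and as sources of IL-1 family cytokines and neutrophil chemokines. The forestomach of ruminants is lined by such an epithelium, which matures as lambs move from milk to solid feed.

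Cells with at least 500 genes and under 20% mitochondrial UMIs (unique molecular identifiers, 1 per captured RNA molecule) numbered 4891 for concentrate, 7031 for hay and 3850 for milk only. Their median depths were 8050, 5887 and 11021 UMIs. Barcodes shared with another library were few, 17, 31 and 17 of these cells. Clusters, built without the cytokine genes, gave 44 T or NK-like cells for concentrate, 8 for hay and 332 for milk only. Macrophage or dendritic-like cells numbered 50, 31 and 112 in the same order, and keratinocytes 4674, 6991 and 3403. Fibroblast-like (59) and endothelial-like (64) cells came almost only from the concentrate library, against 1 such cell for hay and 3 for milk only. Levels below are UMIs of a gene per 1000000 UMIs of the class (CPM), and intervals are exact 95% intervals that cover counting error only. A gene was called different between 2 libraries at 2-fold or more with an interval off 1, given at least 20 UMIs over both libraries and 20 cells of the class in each.

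The labelled identities were checked against marker genes. T or NK-like cells carried 17 of the 22 listed T and NK markers for concentrate and all 22 for milk only, with summed levels of 2544 and 2182 CPM. The 8 hay cells carried 9 of the 22 markers, CD3G among them, with none for CD3E and CD3D, at 681 CPM in sum. Listed basal keratinocyte markers summed to 6947 CPM in these 8 cells, against 6591 CPM in hay keratinocytes, so their identity is unsure. The same sums in T or NK-like cells were 2462 CPM for concentrate and 1835 CPM for milk only. At under 20 cells, hay was left out of T cell comparisons. Macrophage or dendritic-like cells carried 18, 17 and 21 of 22 listed markers for concentrate, hay and milk only, with summed levels of 9581, 6641 and 6232 CPM. Of the T and NK markers 3, 5 and 10 had UMIs in them, summing to 773, 991 and 784 CPM, mostly PTPRC and CD2, while CD3D, CD3E, CD3G, LCK and ZAP70 were at 0 for each diet. The macrophage markers in T or NK-like cells summed to 358 CPM for concentrate and 441 CPM for milk only, mostly LAPTM5. The keratin KRT15 gave T or NK-like cells 30.4% of the keratinocyte level for concentrate and 21.9% for milk only, and macrophage or dendritic-like cells 12.5%, 15.2% and 22.4% for concentrate, hay and milk only, so RNA of this keratinocyte gene was present in the immune classes.

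Of the 144 genes, 75 had at least 20 UMIs over all kept cells, 50 had 1 to 19, and 19 had none. Interleukin receptors were better covered than interleukins: 22 of 31 receptor genes reached 20 UMIs, against 12 of 31 interleukins. Among the interleukins with no UMI were IL2, IL3, IL4, IL5 and IL9, which act mainly between leukocytes. Chemokines reached 20 UMIs in 11 of 22 genes and chemokine receptors in 4 of 15. The keratinocytes held the highest level in every library for 11 of the 75 genes and the macrophage or dendritic-like cells for 9, among the classes with at least 20 cells in that library.

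**Figure D1:**
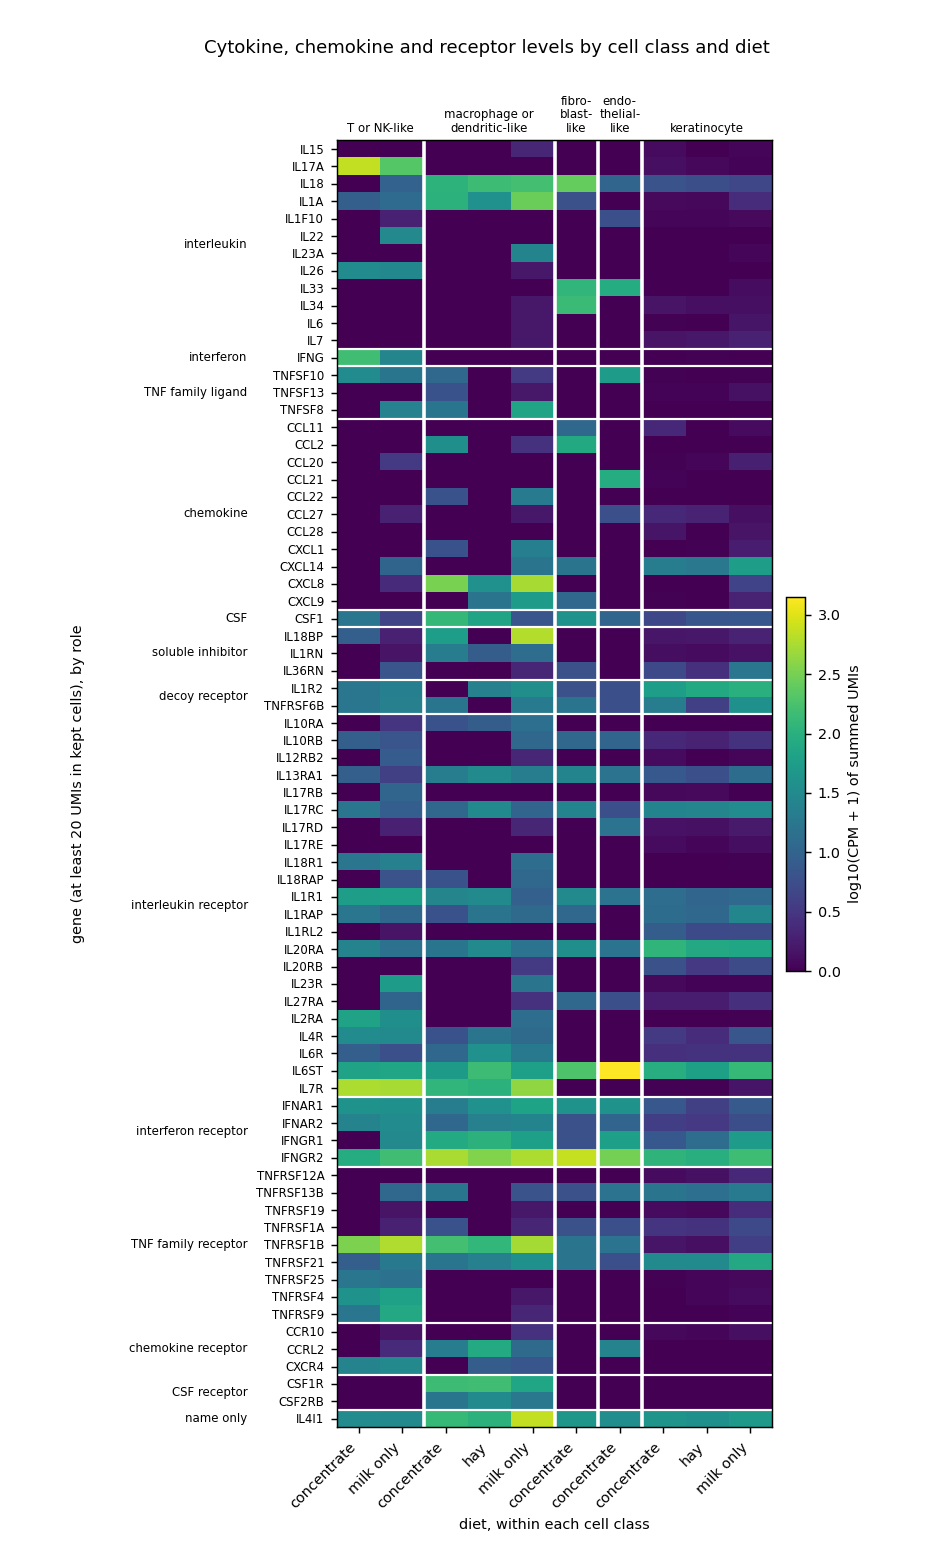
Level of the genes with at least 20 UMIs, 1 of them not shown, in each cell class and diet, as log10(CPM + 1); columns are classes by diet and rows are genes. Rows are to be read along, since levels of different genes are not on one scale. IL17A and IFNG stand out in T or NK-like cells, CSF1R in macrophage or dendritic-like cells, IL18BP in those of concentrate and milk only, and IL20RA in keratinocytes.

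In keratinocytes, far more cytokine, chemokine and receptor genes were called lower than higher with solid feed. Concentrate against milk only gave 20 of 47 genes lower (42.6%), where 10.9% of all 11529 genes were called lower, and 2 of 47 higher, where 4.61% of all genes were. Hay against milk only gave 25 of 46 lower (54.3%) against 17.5% of all genes, and 1 of 46 higher against 2.43%. The median log2 ratio of the cytokine genes was -0.87 for concentrate over milk only, where that of all genes was -0.04. For hay over milk only the medians were -1.16 and -0.29. Both comparisons use the same milk-only library. The minimum of 20 UMIs was over both libraries, so genes such as CXCL8 and IL6 passed it through milk-only counts. They had 1 and 2 UMIs for concentrate, against 158 and 23 for milk only. CCL11 passed it through concentrate, with 59 UMIs against 11. The shares and medians rest in part on genes admitted by the library where they were high. Concentrate against hay gave 6 of 37 genes higher, where 8.56% of all genes were, and 0 lower, where 1.1% of all genes were. With ratios scaled to the median of all genes, 18 of the 20 lower calls for concentrate and 20 of the 25 for hay were kept; IFNAR1, IFNAR2, TNFRSF1A, IL27RA and IL6ST were the 5 lost for hay.

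Among keratinocytes, neutrophil-attracting chemokines came almost only from the milk-only library. CXCL8, which recruits neutrophils through CXCR1 and CXCR2, had 1 UMI for concentrate, 0 for hay and 158 UMIs in 45 cells for milk only. Hay was therefore 50.5-fold lower than milk only with its 0 UMIs set to 3, and at least 40.6-fold lower by the interval. The concentrate ratio was 0.00669 (0.000168 to 0.0378). CXCL1, another neutrophil attractant, had 1, 2 and 38 UMIs for concentrate, hay and milk only. Milk only was thus again far above both solid feeds. CCL20, the ligand of CCR6 on Th17 cells, had 2, 6 and 43 UMIs. CXCL9, an interferon gamma target that attracts CXCR3-bearing T cells, had 2, 1 and 48 UMIs. Its RefSeq gene overlaps ART3, so its reads may not all be its own.

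CXCL14 (ENSOARG00000014723), a chemokine made constitutively by many epithelia, was the best covered chemokine. It stood at 20.5 CPM in concentrate keratinocytes, 17.1 CPM in hay and 56.6 CPM in milk-only keratinocytes. The fold was 2.77 lower for concentrate (2.57 to 2.99) and 3.32 lower for hay (3.06 to 3.60). A skin T cell attractant, CCL27, ran the other way, with 56 UMIs for concentrate, 49 for hay and 17 for milk only, or 3.48-fold (1.99 to 6.39) and 3.01-fold (1.70 to 5.57) higher than milk only. CCL11, the eosinophil attractant eotaxin, had 59 UMIs in 18 concentrate cells, none in hay and 11 UMIs in 5 milk-only cells, so a few cells carried it. Fibroblast markers were also seen in these keratinocytes, 7, 5 and 4 of 10 with a UMI, summing to 27.0, 3.29 and 168 CPM. Most of that sum was DCN, with 1048, 131 and 7859 UMIs, while COL3A1 had 100, 7 and 6 UMIs and LUM, PDGFRB and TCF21 had none. The part of fibroblast RNA in the CCL11 difference was not tested. In concentrate, CCL11 was at 10.2 CPM in fibroblast-like cells (2 UMIs) and 1.33 CPM in keratinocytes, whereas COL3A1 was at 27599 and 2.25 CPM. CCL28, a mucosal chemokine, was seen with concentrate (23 UMIs) and milk only (21 UMIs) and had no UMI in hay. Set to 3 counts, hay was 6.71-fold lower than milk only, and at least 4.99-fold lower by the interval.

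Cytokine ligands of keratinocytes were sparse. IL1A, an alarm cytokine stored in epithelial cells, had 9 UMIs for concentrate, 7 for hay and 71 for milk only, 7.46-fold (3.72 to 17.0) and 9.73-fold (4.48 to 25.1) lower than milk only. IL6 had 2, 1 and 23 UMIs in the same order. By contrast IL18, a precursor kept ready in epithelia, had 241, 211 and 172 UMIs, and its ratio of 1.48 for concentrate over milk only (1.21 to 1.81) was under the 2-fold limit. IL7, a T cell survival factor, had 21, 26 and 45 UMIs and was 2.03-fold lower for concentrate. TNFSF13, which supports antibody-forming cells, had 3, 3 and 19 UMIs. IL7R, the IL-7 receptor of lymphocytes, had 2, 2 and 24, and its milk-only level in keratinocytes was 0.0933% of that in T or NK-like cells, close to the 0.0869% of the leukocyte marker PTPRC. Without keratinocytes that carried an immune marker, milk-only IL7R dropped to 6 UMIs and lost its call. Against macrophage or dendritic-like cells the milk-only shares were 0.616% for CXCL8, 0.549% for IL1A and 3.66% for CXCL1. Macrophage markers spanned a wide range on the same measure, with C1QA at 0.0347%, CD74 at 0.181%, LAPTM5 at 0.194% and CD68 at 4.41%. Other listed markers widened it in milk only. Keratinocytes against macrophage or dendritic-like cells had C1QB at 0.0426 and 183 CPM, AIF1 at 0.192 and 583, and CTSS at 1.87 and 2292. CD14 was higher in keratinocytes, at 2.68 and 1.79 CPM. The part of RNA from these cells in the keratinocyte values was not tested.

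Receptors of the TNF family, with the decoy TNFRSF6B not counted, were lower in 5 of 6 genes tested with each solid feed. Of all genes 10.9% were lower with concentrate and 17.5% with hay. TNFRSF21, the death receptor DR6, stood at 30.1 CPM for concentrate, 30.6 for hay and 80.0 for milk only, which is 2.66-fold (2.50 to 2.83) and 2.61-fold (2.46 to 2.78) lower. TNFRSF1A, the broadly expressed TNF receptor, was at 1.96, 1.89 and 3.96 CPM, and the inducible TNFRSF1B at 0.518, 0.355 and 2.83 CPM. None of the 5 of these receptors tested between concentrate and hay was called, and the TNFRSF21 ratio of concentrate over hay was 0.98 (0.91 to 1.06). TNFRSF12A, the receptor of TWEAK, had 0.225, 0.400 and 1.32 CPM, and TNFRSF19 had 0.248, 0.178 and 1.49 CPM. TNFRSF13B was the sixth, at 15.3, 13.0 and 19.6 CPM. In mouse and human it is the receptor TACI of B cells.

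Interferon receptor subunits moved unequally. IFNGR1 (ENSOARG00000000510), the ligand-binding chain for interferon gamma, was at 6.37 CPM for concentrate, 12.2 for hay and 52.3 for milk only. It was 8.21-fold lower for concentrate (7.26 to 9.32) and 4.28-fold lower for hay (3.90 to 4.71). The partner chain IFNGR2 was at 111, 92.8 and 149 CPM, with a ratio of 0.75 for concentrate over milk only (0.72 to 0.78), inside the 2-fold limit. One chain of the receptor therefore differed several-fold and the other little. The type I interferon receptor genes IFNAR1 (6.21, 2.97 and 6.79 CPM) and IFNAR2 (2.86, 2.33 and 4.71 CPM) were called lower with hay only, and IFNAR1 was 2.09-fold higher in concentrate than in hay (1.69 to 2.59).

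Among interleukin receptors, 4 of 15 were lower with concentrate, where 10.9% of all genes were, and 6 of 15 with hay, where 17.5% were. None of the 15 was called higher, where 4.61% and 2.43% of all genes were. IL4R, the shared chain for IL-4 and IL-13, was at 2.45 CPM for concentrate, 1.53 for hay and 6.05 for milk only. IL13RA1, its partner in the IL-13 receptor, was at 6.41, 4.84 and 11.9 CPM and was called with hay alone. IL1RAP, the accessory chain shared by IL-1, IL-33 and IL-36 receptors, was at 11.9, 10.4 and 26.9 CPM, or 2.25-fold (2.03 to 2.49) and 2.59-fold (2.33 to 2.89) lower. The IL-1-binding chain IL1R1 differed little, at 12.5, 9.55 and 11.1 CPM. IL6ST, the gp130 chain of the IL-6 family, was at 90.7, 60.2 and 129 CPM and was 2.14-fold lower with hay (2.04 to 2.24).

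Receptors for the IL-20 family and IL-36 did not share this direction. IL20RA (ENSOARG00000000464), a chain of the receptors for IL-19, IL-20, IL-24 and IL-26, stood at 114 CPM for concentrate, 78.1 for hay and 72.2 for milk only. The concentrate ratio of 1.58 over milk only (1.51 to 1.65) was under the 2-fold limit. Its partner IL20RB was at 5.09, 2.38 and 4.22 CPM, 2.14-fold higher in concentrate than in hay (1.69 to 2.72). IL1RL2, the IL-36 receptor, was at 7.54, 4.08 and 4.24 CPM, and its ratio of 1.78 for concentrate over milk only (1.49 to 2.13) was also under the limit. IL17RC, a chain of the receptor for IL-17A and IL-17F, differed little at 25.3, 26.1 and 32.4 CPM.

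Of the decoys and antagonists, TNFRSF6B and IL36RN were called between the solid feeds. TNFRSF6B (ENSOARG00000010322), a secreted decoy for FAS ligand and related TNF family ligands, was at 20.6 CPM for concentrate, 2.97 for hay and 37.7 for milk only. Hay was 12.7-fold lower than milk only (10.6 to 15.2), and concentrate was 6.92-fold higher than hay (5.77 to 8.36). The decoy IL-1 receptor IL1R2 was at 57.3, 81.7 and 99.9 CPM, with no call. IL36RN, the antagonist of the IL-36 receptor, had 174 UMIs for concentrate, 79 for hay and 755 for milk only, and was 4.11-fold (3.48 to 4.87) and 9.17-fold (7.26 to 11.7) lower than milk only. The concentrate UMIs came from 38 cells, 27 of them from 1 cell, and the 2.23-fold higher level in concentrate than in hay turned round in 3 alternatives, among them cycling cells alone.

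**Figure D2:**
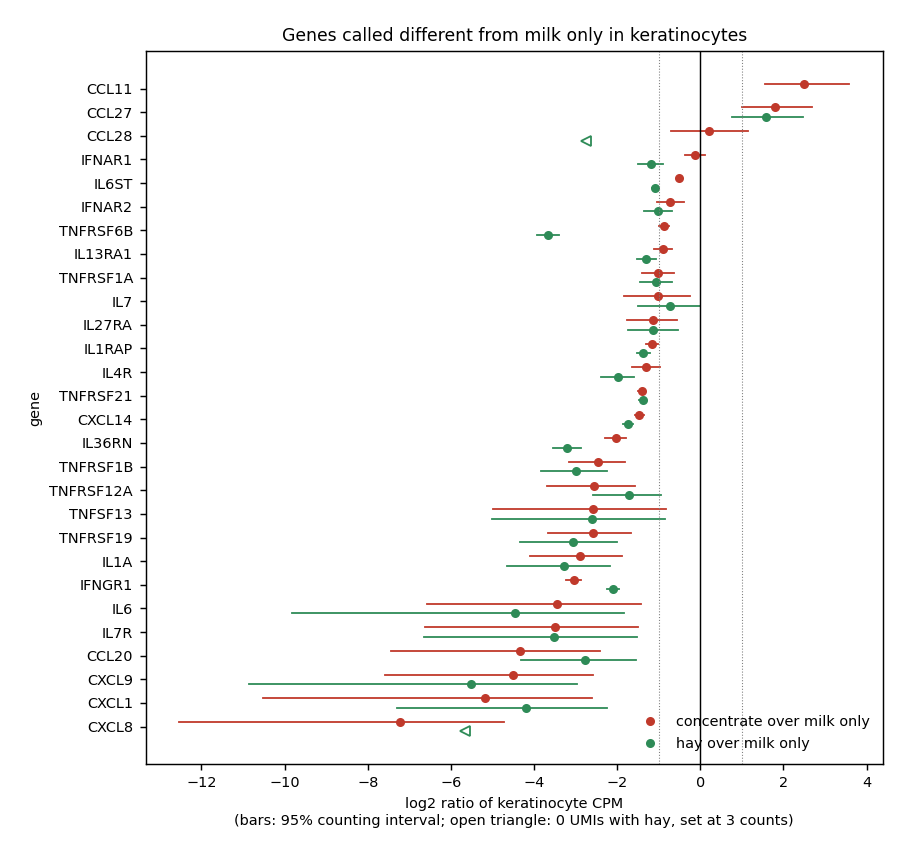
Log2 ratio of each named gene's level in keratinocytes, concentrate over milk only and hay over milk only, with exact 95% counting intervals. Open triangles mark libraries with 0 UMIs, placed at 3 counts, and dotted lines mark the 2-fold limits; CCL11 has no hay value because hay and milk only together had under 20 UMIs. Most points lie left of 0, CCL27 lies right of it for both feeds, and TNFRSF6B separates the feeds.

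The keratinocytes of the 3 libraries fell largely into different clusters, and several of these genes had their highest level in clusters of 1 library. The cluster led by LGALS1 and FABP4 held 2266 concentrate, 13 hay and 3 milk-only cells, and that led by FBP1 held 91, 3307 and 9. A cluster led by the immediate-early and stress genes ZFP36 and ATF3 held 3, 1 and 1034 cells. Within the milk-only library it had 112 CPM of IFNGR1, against 47.0 in the cycling cluster, 20.2 in the cluster led by KRT36 and A2ML1 and 19.7 in that led by GPNMB and FMO2. CXCL8 in the same 4 clusters was at 9.76, 1.95, 0 and 0.252 CPM, and IL4R at 13.3, 5.32, 2.05 and 2.14 CPM. TNFRSF21 (131 CPM) and CXCL14 (90.4 CPM) were also highest in the ZFP36 and ATF3 cluster among these 4. Over all libraries, IL36RN and TNFRSF6B were highest in the differentiated clusters: IL36RN was at 84.5 CPM in the cluster led by KRT36 and A2ML1 and 62.9 CPM in that led by SPINK5 and KRT10, while TNFRSF6B was at 46.1 and 157.6 CPM. The IL-36 agonist IL36A, outside the gene rule, was also high there, at 144.9 and 82.3 CPM. The first of these clusters held 15 concentrate, 17 hay and 822 milk-only cells, and the second 77, 79 and 0.

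**Figure D3:**
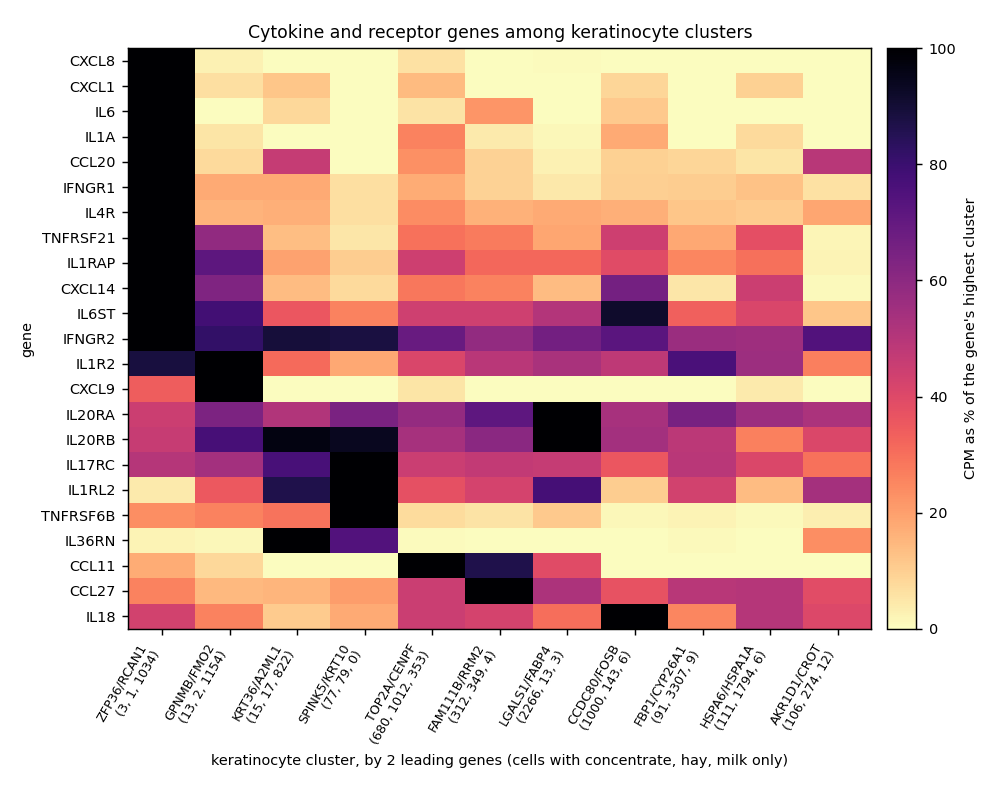
Level of 23 genes in the 11 keratinocyte clusters, over all libraries and scaled to its highest cluster (100%); labels give the cells from concentrate, hay and milk only. IFNGR1, CXCL8 and IL4R peak in the ZFP36 and ATF3 cluster (labelled ZFP36 and RCAN1, its 2 leading genes), IL36RN and TNFRSF6B in the differentiated clusters, and IL20RA in the LGALS1 and FABP4 cluster.

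Leaving out the ZFP36 and ATF3 cluster reduced the lower calls to 13 for concentrate and 16 for hay against milk only. Of the original calls 11 of 20 and 13 of 25 were kept. IFNGR1 kept its call, at 6.35 CPM for concentrate against 26.2 for milk only, whereas TNFRSF21 (ratio 0.52), IL1RAP (0.54) and IL4R (0.85) lost theirs for concentrate. The cycling cluster, led by TOP2A, was the only one with over 100 cells of each library (680, 1012 and 353). Within it concentrate gave 9 of 27 genes lower than milk only, where 8.51% of all genes were, and 2 of 27 higher, where 3.7% were. Hay gave 13 of 26 lower, where 13.1% were, and 0 of 26 higher, where 2.04% were. IFNGR1 there was at 5.54 CPM for concentrate, 9.91 for hay and 47.0 for milk only. CXCL14 (ratio 0.416), TNFRSF21 (0.456) and IL1RAP (0.486) were also lower for concentrate in cycling cells. Of the original lower calls, 7 of 20 for concentrate and 11 of 25 for hay were kept in this cluster, where fewer genes reached 20 UMIs. Whether its cells from the 3 libraries were otherwise in the same state was not tested.

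Between concentrate and hay keratinocytes, 6 of 37 of these genes (16.2%) were called, all higher for concentrate, where 8.56% of all genes were higher. In cycling cells 4 of 25 were higher for concentrate, where 5.48% of all genes were, and 0 of 25 lower, where 1.17% were. Of the 6 higher calls over all keratinocytes 3 were kept there: IFNAR1 (2.96-fold), TNFRSF6B (3.67-fold) and CCL11. IL36RN changed direction there, with a log2 ratio of -2.07 for concentrate over hay. Scaling by median ratios moved the median of all genes, 0.23 on the log2 scale for this comparison, to 0, and IFNAR1, IL20RB and IL36RN then lost their calls.

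IL17A and IFNG were higher in concentrate than in milk-only T or NK-like cells. IL17A (ENSOARG00000013930), the cytokine that defines Th17 cells, was at 740 CPM for concentrate (595 to 908) and 211 CPM for milk only (192 to 232). Its UMIs came from few cells: 91 UMIs in 6 of 44 concentrate cells, against 434 UMIs in 16 of 332 milk-only cells, of which 333 were in 1 cell. IFNG (ENSOARG00000001958), the interferon of Th1 and NK cells, was at 154 CPM for concentrate (93.0 to 241; 19 UMIs in 8 cells) and 26.3 CPM for milk only (19.8 to 34.3; 54 UMIs in 17 cells). The ratios of 3.50 for IL17A (2.76 to 4.39) and 5.87 for IFNG (3.29 to 10.1) were the 2 higher calls among 32 genes, where 6.39% of all genes were called higher. Both were kept without the cell richest in the gene. The cells differed in other genes too, with listed cycling markers summing to 1284 CPM for concentrate and 245 CPM for milk only. Among the T and NK markers, CD69 was at 569 and 171 CPM and GATA3 at 122 and 201 CPM. The part of such differences in these ratios was not tested. The 8 hay cells had 1 UMI of each gene. IL17F, outside the gene rule, ran the other way in this class. It had 128 of 123053 class UMIs for concentrate and 5860 of 2053207 for milk only. Outside this class, IL17A had 15, 8 and 3 UMIs in keratinocytes of concentrate, hay and milk only, the 15 in 1 cell, and none in macrophage or dendritic-like cells.

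Lower in concentrate T or NK-like cells were 2 of 32 genes, where 2.81% of all genes were. IL23R, the receptor that sustains IL-17-producing cells, had no UMI in concentrate cells and 107 UMIs in 62 milk-only cells. Set to 3 counts, concentrate was 2.14-fold lower, and at least 1.71-fold lower by the interval. TNFRSF9, the activation marker 4-1BB, had 2 UMIs for concentrate and 162 for milk only, a ratio of 0.206 (0.0247 to 0.756). IL22, which acts on epithelia and other cells outside the blood lineages, was seen only in milk-only cells, with 60 UMIs in 18 cells. With 0 UMIs set to 3 counts, concentrate stood at 24.4 CPM of IL22, close to the 29.2 CPM of milk only, so no difference was detectable at this depth. IL26 was alike at 32.5 and 28.2 CPM.

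Among the receptors of this class, differences were smaller. IL7R was at 585 CPM for concentrate and 548 CPM for milk only, with a ratio of 1.07 (0.83 to 1.36), and TNFRSF1B at 341 and 590 CPM (ratio 0.58, 0.41 to 0.79). IL2RA, the IL-2 receptor chain induced on activation, was at 65.0 CPM for concentrate and 36.5 CPM for milk only, from 8 and 75 UMIs. TNFRSF4, the costimulatory receptor OX40, was at 40.6 and 62.3 CPM from 5 and 128 UMIs. Their intervals include 1 except for TNFRSF1B, which did not reach 2-fold. Median depth per cell was 2159 UMIs for concentrate and 4939 for milk only.

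In macrophage or dendritic-like cells, more of these genes were called lower than higher with each solid feed. Concentrate against milk only gave 10 of 35 genes lower, where 5.44% of all genes were, and hay 7 of 35, where 4.81% were. The class held 192676 UMIs for concentrate, 132204 for hay and 1671773 for milk only, and the UMI minimum was over both libraries. Genes such as IL1R2, CXCL9 and IL23A passed it through milk-only counts alone, with 58, 89 and 43 UMIs against 0 for concentrate. CSF1 passed it through concentrate, with 24 UMIs against 10. Genes high only with solid feed could less easily reach it, so these shares rest in part on which library admitted the genes. The median log2 ratio of the 35 was -0.74 for concentrate and 0.04 for hay, where those of all genes were 0.18 and 0.28. Among the 35, genes at 0 UMIs with solid feed were set to 3 counts, 7 for concentrate and 10 for hay. The hay median was the value of such a gene, CXCL1, with 0 UMIs for hay and 37 for milk only. Its sign therefore rested on that setting, and no direction is read from it. IL18BP (ENSOARG00000003484), the soluble inhibitor of IL-18, was at 57.1 CPM for concentrate, 0 for hay and 608 CPM for milk only. Concentrate was 10.6-fold lower (5.92 to 21.4). Hay was 26.8-fold lower with its 0 UMIs set to 3, and at least 21.7-fold lower by the interval. The RefSeq gene overlaps RNF121. IL18 itself was at 109, 144 and 162 CPM, so the inhibitor differed where its ligand differed little. IL4I1, an amino acid oxidase of antigen-presenting cells that bears an interleukin name only, was at 130, 106 and 726 CPM. TNFRSF1B was at 161, 121 and 538 CPM, and IL7R at 119, 106 and 428 CPM.

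Their IL1A was at 104 CPM for concentrate, 37.8 for hay and 275 for milk only, 2.65-fold and 7.28-fold lower. CXCL8 was at 327 CPM for concentrate, 37.8 for hay and 546 for milk only. For this gene hay stood apart, 14.4-fold below milk only (6.17 to 44.6), while concentrate was 8.65-fold above hay (3.52 to 27.5), the 1 higher call of 11 genes in that comparison, where 4.69% of all genes were. The reverse call, 1 of 11 where 3.89% of all genes were, was IL6ST at 51.9 CPM for concentrate against 144 for hay, a call lost without the cell richest in IL6ST. IL23A, the specific chain of IL-23, had no UMI for concentrate or hay and 43 UMIs in 17 milk-only cells. Its RefSeq gene overlaps STAT2. IL12B, the chain IL-23 shares with IL-12, had 9 UMIs in 1 milk-only cell. CXCL9, called lower with concentrate, had 89 UMIs in milk-only cells, 87 of them in 1 cell. TNFSF8, the ligand of CD30, had 3 UMIs for concentrate, 0 for hay and 114 UMIs in 55 cells for milk only, and CCL22, a dendritic cell chemokine for CCR4-bearing T cells, had 1, 0 and 32 UMIs. IFNAR1 was at 20.8, 37.8 and 66.4 CPM, called lower with concentrate.

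With concentrate, CSF1 and its receptor CSF1R were called higher. CSF1 (ENSOARG00000019349), the macrophage growth factor, was at 125 CPM for concentrate (24 UMIs in 8 cells), 68.1 for hay (9 UMIs) and 5.98 for milk only (10 UMIs), 20.8-fold higher for concentrate (9.60 to 48.8). Hay and milk only together had 19 UMIs, below the 20 needed for a call. Its receptor CSF1R was at 145, 151 and 69.4 CPM, 2.09-fold (1.33 to 3.19) and 2.18-fold (1.28 to 3.52) higher. CSF2RB, the shared receptor chain for GM-CSF, IL-3 and IL-5, had no call at 15.6, 30.3 and 17.4 CPM. CSF1 and CSF1R were the 2 higher calls of 35 for concentrate, a smaller share than the 11.4% of all genes; hay had 3 of 35, also under the 11.1% of all genes, namely CSF1R, the atypical chemokine receptor CCRL2 (8 of 11 UMIs in 1 cell) and IL6ST. Without the cell richest in the gene, concentrate CSF1R was at a ratio of 1.91, and under median-ratio scaling CSF1R lost both calls. Median depth was 3614.5, 3605 and 13653 UMIs per cell, and the markers differed too, with C1QA at 3156, 2239 and 1412 CPM and CD86 at 166, 68.1 and 360 CPM. Their part in these differences was not tested.

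**Figure D4:**
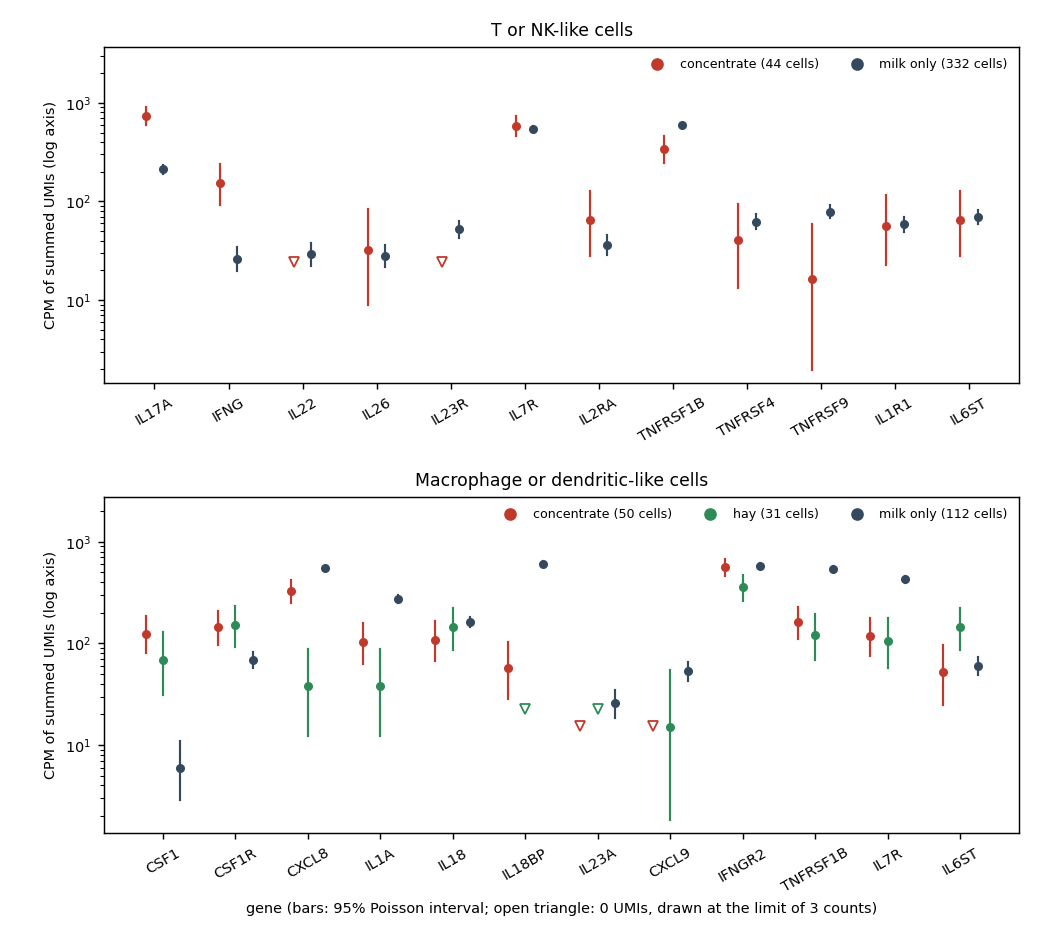
Level of 12 genes in T or NK-like cells (concentrate and milk only) and of 12 genes in macrophage or dendritic-like cells (concentrate, hay and milk only), on a log CPM axis with exact Poisson 95% intervals; open triangles mark 0 UMIs at the limit of 3 counts. IL17A and IFNG are higher for concentrate, IL18BP and TNFRSF1B are highest for milk only, and CSF1 is lowest for milk only.

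Stromal cells could be described for concentrate only. Fibroblast-like cells carried all 10 listed fibroblast markers and endothelial-like cells all 13 listed endothelial markers. In fibroblast-like cells IL18 was at 256 CPM (50 UMIs in 29 cells), IL34, the second ligand of CSF1R, at 138 CPM (27 UMIs in 18 cells), and IL33, an alarm cytokine kept in the nucleus, at 118 CPM (23 UMIs in 16 cells). CCL2, which attracts monocytes, was at 82.0 CPM and CSF1 at 41.0 CPM. The fibroblast-like cells thus held both ligands of CSF1R, the receptor of the macrophage or dendritic-like cells. In endothelial-like cells IL6ST was at 1421 CPM (290 UMIs in 57 of 64 cells), against 90.7 CPM in concentrate keratinocytes. IFNGR2 was at 748 CPM in fibroblast-like and 309 CPM in endothelial-like cells, against 111 CPM in concentrate keratinocytes. CCL21, the lymphatic chemokine that guides dendritic cells, was at 88.2 CPM (18 UMIs in 11 cells) and IL33 also at 88.2 CPM (18 UMIs in 13 cells).

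Genes that act with these cytokines were read in keratinocytes from 4 lists, against the 10.9% of all genes lower with concentrate and 17.5% with hay. The lists were chosen with earlier results of these data known, so their counts are not independent support. ZFP36, which led the cluster made up almost only of milk-only cells, is on the IL-17 and NF-kB list. Targets of IL-17 and NF-kB were lower than milk only in 16 of 16 genes with concentrate (median log2 ratio -3.48, all genes -0.04) and 16 of 16 with hay (-4.38, all genes -0.29). NFKBIA, the inhibitor that NF-kB itself induces, was at 127, 132 and 1168 CPM for concentrate, hay and milk only, and the antimicrobial gene LCN2 at 1.80, 0.289 and 5.07 CPM. Interferon response genes were lower in 10 of 15 with concentrate (median -2.12) and 13 of 15 with hay (-2.68). The ubiquitin-like ISG15 was at 3.44, 4.88 and 42.0 CPM, while IFI44L was higher with both feeds. Signal transducers were lower in 7 of 32 with concentrate (median -0.20) and 9 of 31 with hay (-0.66). SOCS3, a feedback inhibitor of gp130 signalling, was at 5.58 CPM for concentrate and 33.5 CPM for milk only. Cytokines and receptors of other names were lower in 5 of 12 (median -0.83) and 7 of 12 (-1.67). Concentrate over hay gave higher calls in 7 of 15 IL-17 and NF-kB targets and 5 of 12 interferon response genes, where 8.56% of all genes were higher. It gave no lower call in any of the 4 lists, where 1.1% of all genes were lower.

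In macrophage or dendritic-like cells the IL-17 and NF-kB targets were lower in 4 of 11 with concentrate (5.44% of all genes; median -0.65, all genes 0.18) and 9 of 11 with hay (4.81% of all genes; median -2.06 with genes at 0 UMIs set to 3 counts, all genes 0.28). The NF-kB subunit NFKB1 was at 62.3, 22.7 and 308 CPM for concentrate, hay and milk only, and REL, another subunit, at 420, 250 and 1122 CPM. The adaptor MYD88, which carries IL-1 and Toll-like receptor signals, went against these at 93.4 CPM for concentrate and 10.8 CPM for milk only. In T or NK-like cells 4 of 10 of the same targets were lower with concentrate, where 2.81% of all genes were, and 1 higher, where 6.39% were. Their median was 0.61 with the gene at 0 UMIs set to 3 counts and -0.28 otherwise, so its sign rested on that gene.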

How the data were processed

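The data were deposited raw UMI counts of 3 libraries, 1 per diet, grouped by sample titles. The submitters' processing notes name Cell Ranger 3.1, whereas the matrices carry 5.0.0, per the file headers. No coordinates are given, because the genome build is not given in the sources used here. Libraries held 9214, 9543 and 7032 barcodes and 60220174, 56861548 and 63057979 UMIs (concentrate, hay, milk only).

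Kept cells were scaled to 10000 UMIs, log-transformed and clustered on 2000 variable genes other than the cytokine genes, IL17F, IL1B and IL36A (30 components, 15 neighbours, Leiden resolution 0.6, no integration; scanpy 1.11.5, leidenalg 0.10.2, scipy 1.17.1). Doublets were kept and no caller was run. A cluster took the name whose marker list had the highest median fold, with at least 3 markers at 20 CPM and 3 at 2-fold; unnamed clusters counted as keratinocytes by default. This procedure was chosen after seeing the data. UMIs were summed by class and library and compared as CPM with exact conditional binomial intervals over all genes, a step tested on simulated data.

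The levels of 1 gene of the set are not reported here. The genes and lists were chosen with earlier results of these data known. Named genes are up to 8 called genes at each end of each keratinocyte comparison, the 10 highest genes per class, and ligand and receptor partners; the marker, cell-state and single-cell details were chosen after their values were seen. Levels were not compared between genes, since counts are not per length. Gene symbols come from the deposited files; 137 of the 144 matched RefSeq, of which 47 overlap another gene there. Whether counting used strand is not given, so reads of overlapping genes cannot be told apart. Alternatives covered cell filters, resolution, scaling, count minimum, fold, cell make-up and single cells.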

Additional observations from a re-analysis of the deposited data

Results flagged for a closer look

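IL6ST, the gp130 chain of the IL-6 family receptors, differed in opposite directions in the same comparison of diets. Hay over milk only gave a log2 ratio of -1.10 in keratinocytes and 1.26 in macrophage or dendritic-like cells. The levels were 60.2 CPM for hay and 129 CPM for milk only in keratinocytes, against 144 CPM for hay and 59.8 CPM for milk only in macrophage or dendritic-like cells. The difference between the classes was not tested, since each diet had 1 library. The hay value in macrophage or dendritic-like cells lost its call without the cell richest in IL6ST, at a ratio of 1.77.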

How the results depend on the processing

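No paired analysis was possible because each diet had 1 library. In keratinocytes, the 6 higher calls of concentrate over hay became 3 under a 10% mitochondrial limit, under median-ratio scaling and without cycling and differentiated clusters. The 0 lower calls became 1 under each of these 3 and when totals left out the 50 highest genes, and 2 at 1.5-fold. The 2 higher calls of concentrate over milk only became 4 at 1.5-fold, and the 1 of hay over milk only became 2 at 10 UMIs. In macrophage or dendritic-like cells, concentrate against hay went to 4 calls at 10 UMIs and 1 at 50, against 2. Alternatives chosen after seeing the data gave 13 lower calls for concentrate and 16 for hay against milk only without the ZFP36 and ATF3 cluster, and 9 and 13 in cycling cells, against 20 and 25, with 0 higher for hay in cycling cells. Directions turned for IL36RN, concentrate over hay (log2 ratio -0.11 at the 10% limit, -2.18 without cycling and differentiated clusters, -2.07 in cycling cells), and in cycling cells for IL7, concentrate over milk only (0.11), and TNFRSF19, hay over milk only (0.23). The cause was not tested. Of the counts of calls 142 values stayed within 1.5 times and 17 did not. A minimum of 1000 genes left 8 concentrate T or NK-like cells, so that comparison was not run. Of the 144 genes, 69 had under 20 UMIs, too few for a comparison at these depths.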

Other observations

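Milk-only T or NK-like cells were also read for which of these genes shared a cell with IL17F, which lies outside the gene rule. IL17F was detected in 140 of 332 cells (42.2%). It was present in 16 of the 16 cells with IL17A, 16 of 18 with IL22, 30 of 32 with IL26 and 48 of 62 with IL23R. IFNG stood apart, with IL17F in 2 of its 17 cells. IL7R (99 of 209) and TNFRSF1B (129 of 278) lay near the share over all cells. Concentrate had IL17F in 17 of 44 cells (38.6%), among them 5 of 6 with IL17A and 3 of 8 with IFNG. Cells with more UMIs are more likely to show any pair of genes, and these shares were not thinned to one depth.

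The chemokine XCL1, one of the cytokines with other names, was at 861 CPM in concentrate T or NK-like cells and 224 CPM in milk-only ones, 3.84-fold higher.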
